A study of Mus musculus with 12 samples.

Results

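Creatine kinase B, encoded by *Ckb*, was studied together with the genes that make, import and use creatine. The group consisted of *Gatm*, *Gamt*, *Slc6a8*, *Ckb*, *Ckm*, *Ckmt1* and *Ckmt2*, which are 7 of the 24189 genes listed in every RNA-seq library of the series. All 7 were found by name, whereby *Ckm* and *Ckmt1* carried a suffix whose meaning is not given in the sources used here. *Ckb* was selected on its low expression in Xbp1-deficient plasmablasts (PBs) and Mist1-deficient plasma cells (PCs), so that its values in these comparisons are a description and received no test. The other 6 genes were chosen for their function, with earlier results of these data known.

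Creatine is made in a pair of steps. Gatm transfers an amidino group from arginine to glycine, which yields guanidinoacetate and ornithine, and Gamt then methylates guanidinoacetate with S-adenosylmethionine as the methyl donor. Cells can also take up creatine through the transporter Slc6a8. Creatine kinases move a phosphate group between ATP and creatine, and phosphocreatine thereby serves as a mobile energy store close to sites of high ATP use. Ckb is the cytosolic enzyme of brain and many other tissues, Ckm is its counterpart in skeletal and heart muscle, and Ckmt1 and Ckmt2 are the ubiquitous and sarcomeric enzymes of mitochondria.

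The data comprise 10 RNA-seq libraries in 5 groups of 2 and a pair of Mist1 peak lists. PBs were obtained on day 8 of the iGB culture, in which splenic B cells grow on 40LB cells, a fibroblast feeder line that presents CD40 ligand and BAFF. These PBs came from *Xbp1* fl/fl mice, which served as controls without Cre (control PBs), from *Cd23*-Cre *Xbp1* fl/fl mice (Xbp1-deficient PBs), and from *Bhlha15* CreER/CreER mice, in which both copies of the gene encoding Mist1 carry CreER. PCs were isolated from the spleen on day 7 after immunization with NP-KLH in alum and came from mice labelled wildtype, which the study lists as *Bhlha15* fl/fl, and from *Cd23*-Cre *Bhlha15* fl/fl mice (Mist1-deficient PCs). *Cd23*-Cre deletes floxed alleles from the immature B cell stage onward, and the floxed *Bhlha15* allele carries a tag for biotinylation. The *Bhlha15* CreER/CreER PBs had no control of their own and were compared with the control PBs. The study describes the libraries of a group as independent experiments. Whether these used separate animals is not given in the sources used here, so that p-values measure the spread between libraries. Mist1 Bio-ChIP-seq, a precipitation of biotinylated Mist1, was performed in 2 experiments with PBs on day 4 of LPS stimulation. These PBs came from *Bhlha15* fl/fl R26 BirA/BirA mice, in which the biotin ligase BirA is expressed from both *Rosa26* alleles.

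Expression was deposited as TPM, a level that is corrected for gene length, sums to the same total in each library and leaves the sequencing depth unknown. Between 11514 and 12024 genes reached 1 TPM per library. *Xbp1* stood at 3168 and 3043 TPM in control PBs and at 1981 and 2024 TPM in Xbp1-deficient PBs, and the gene-level value does not resolve the deleted part. *Bhlha15* stood at 258 and 242 TPM in wildtype PCs and at 14.4 and 16.6 TPM in Mist1-deficient PCs. In the PBs, *Bhlha15* stood at 176 and 159 TPM with intact *Xbp1*, at 3.57 and 2.6 TPM without it, and at 0.210 and 0.551 TPM in *Bhlha15* CreER/CreER cells. The Xbp1-deficient PBs were thus also low in Mist1 mRNA. The summed level of 8 fibroblast markers, all of them listed, was 866 to 1673 TPM in the PBs and 2.34 to 2.81 TPM in the PCs, where 7 of them were under 1 TPM. The sum was 1085 and 1295 TPM in control PBs, 1673 and 1528 TPM in Xbp1-deficient PBs, and 1447 and 866 TPM in *Bhlha15* CreER/CreER PBs. In each PB group, 2 of the 8 markers, *Pdgfrb* and *Fbn1*, were under 1 TPM. Most of the sum came from *Col1a1*, *Col1a2* and *Sparc*, at 588, 314 and 139 TPM in the first control PB library. Markers of neutrophils summed to 10.3 and 11.6 TPM in control PBs, to 133 and 134 TPM in Xbp1-deficient PBs, and to 461 to 988 TPM in the PCs.

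*Ckb* lies on mouse chromosome 12 at position 112907566 to 112910549 of the mm9 build, on the minus strand, and has 1 annotated transcript. *Gamt* lies on chromosome 10 at 79720896 to 79723757, also on the minus strand. Of the 7 genes, 2 had a Mist1 region found in both experiments within 1 kb of a transcription start site (TSS), namely *Ckb* and *Gamt*. Such a region was present at 35.6% of all protein-coding genes and at 62.8% of those tested in PBs, and the share of 2 in 5 among the creatine genes tested there lay below the latter. Within 10 kb of the gene, *Ckm* joined them, and 3 of 7 compares with 53.9% of all protein-coding genes. *Gatm*, *Slc6a8* and *Ckmt2* had no peak within 10 kb in either experiment, and *Ckmt1* had a single peak in experiment 1, centred 2.32 kb upstream of its start. The peak lists used here are shorter than those the study counts, so that shares, overlaps and the absence of a peak refer to these lists alone.

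*Ckb* had 3 regions in both experiments. The first covered its TSS and spanned 1467 bp, at 112909745 to 112911211. The second, as the part shared by both experiments, lay in intergenic sequence just beyond the 3′ end, at 112906475 to 112907547. The full peak of experiment 1 there reached 112907653, within exon sequence of *Ckb*. The third was centred 5.9 kb upstream, at the start of the neighbouring gene *Trmt61a*, at 112916083 to 112916822. The region at *Gamt*, at 79723544 to 79724859, spanned 1316 bp around the TSS and also covered exon sequence of the divergent gene *Dazap1*.

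**Figure D1:**
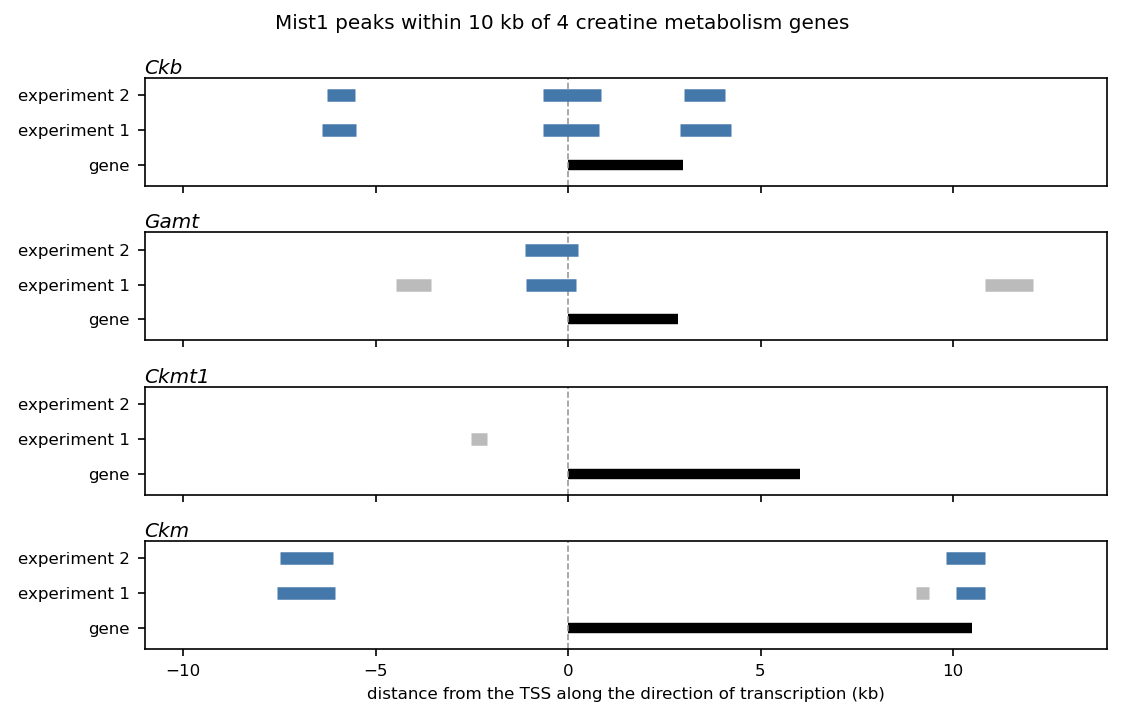
Mist1 peaks around *Ckb*, *Gamt*, *Ckmt1* and *Ckm*, drawn by distance from the TSS in kb along the direction of transcription, with the gene as a black bar and 1 row per experiment. Blue peaks overlapped in both experiments and grey peaks were found in experiment 1 alone; *Ckb* and *Gamt* have a blue peak over the TSS, and the blue peaks of *Ckm* lie near its end and about 7 kb upstream.

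The sequences at these regions are shown because Mist1 binds E-boxes, which read CANNTG, and Xbp1 binds elements that contain TGACGTG or CCACG. The 250 bases upstream of *Ckb* (chr12:112910550-112910799) and of *Gamt* (chr10:79723758-79724007) and the central 300 bases of the region beyond the 3′ end of *Ckb* (chr12:112906862-112907161) are given on the minus strand, 5′ to 3′ for each gene. Capitals mark the E-box, the motif CCAAT that often accompanies such elements, the motif CCACG and the motif TGACGTG on either strand. The last pair can overlap, as in the sequence beyond the 3′ end.

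Ckb upstream: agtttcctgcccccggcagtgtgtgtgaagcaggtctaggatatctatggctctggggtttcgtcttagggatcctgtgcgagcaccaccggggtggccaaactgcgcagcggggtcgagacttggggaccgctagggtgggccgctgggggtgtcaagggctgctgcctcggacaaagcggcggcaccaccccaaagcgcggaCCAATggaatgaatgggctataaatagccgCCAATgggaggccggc

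Gamt upstream: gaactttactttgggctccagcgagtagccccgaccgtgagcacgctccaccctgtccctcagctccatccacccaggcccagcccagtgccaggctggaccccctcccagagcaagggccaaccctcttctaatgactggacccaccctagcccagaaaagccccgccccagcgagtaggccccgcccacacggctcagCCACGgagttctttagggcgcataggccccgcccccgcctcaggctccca

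Ckb beyond the 3′ end: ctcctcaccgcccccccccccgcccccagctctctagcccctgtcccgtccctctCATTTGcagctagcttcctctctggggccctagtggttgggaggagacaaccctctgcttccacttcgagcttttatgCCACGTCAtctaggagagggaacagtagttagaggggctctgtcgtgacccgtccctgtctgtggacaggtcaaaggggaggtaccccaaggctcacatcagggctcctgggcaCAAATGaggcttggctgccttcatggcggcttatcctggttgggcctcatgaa

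Neither upstream window held CANNTG, which was present in 63.6% of such windows over 22220 protein-coding genes. The *Ckb* window held CCAAT at 2 positions, and 35.0% of the windows held at least 1. The *Gamt* window held CCACG at 1 position, as did 31.1% of the windows at 1 or more. The window beyond the 3′ end of *Ckb* held CANNTG at 2 positions, which is also the median of the central windows of the regions found in both experiments, and 89.1% of these held it. It further held TGACGTG, in overlap with CCACG, which was present in 1.54% of the central windows. Over its full length, the region at the TSS of *Ckb* held CANNTG at 5 positions, or 3.41 per kb, and the region at the TSS of *Gamt* held it at 7 positions, or 5.32 per kb, against a median of 6.41 per kb over all regions. TGACGTG was absent from the full regions at the TSS of *Ckb*, at the start of *Trmt61a* and at the TSS of *Gamt*. Of all regions, 4.3% held it over their full length. CCACG was found at 0, 3 and 4 positions in these 3 regions, respectively. All such matches describe the letters of the windows and regions and not occupied sites.

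The levels of the 7 genes differed between PBs and PCs as well as between genotypes. The TPM compared here are set within each library, and the separate normalization of PBs and PCs by the authors belongs to their DESeq2 test. The PB and PC libraries differ in origin and day, and no test was made between them. Over the 10 libraries, *Ckb* ranged from 1.58 to 76.0 TPM, *Slc6a8* from 2.45 to 16.2 TPM, *Gatm* from 1.36 to 8.45 TPM and *Gamt* from 0.997 to 6.78 TPM. *Ckmt1* reached 1 TPM in 5 libraries, with a maximum of 2.12 TPM. *Ckm* and *Ckmt2* stayed at or below 0.323 and 0.0906 TPM and were listed at 0 in 5 and 8 libraries, so that neither passed the filter for testing. *Ckb* was the most abundant creatine kinase mRNA in 9 libraries, the exception being a library of Xbp1-deficient PBs in which *Ckmt1* lay slightly above it.

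**Figure D2:**
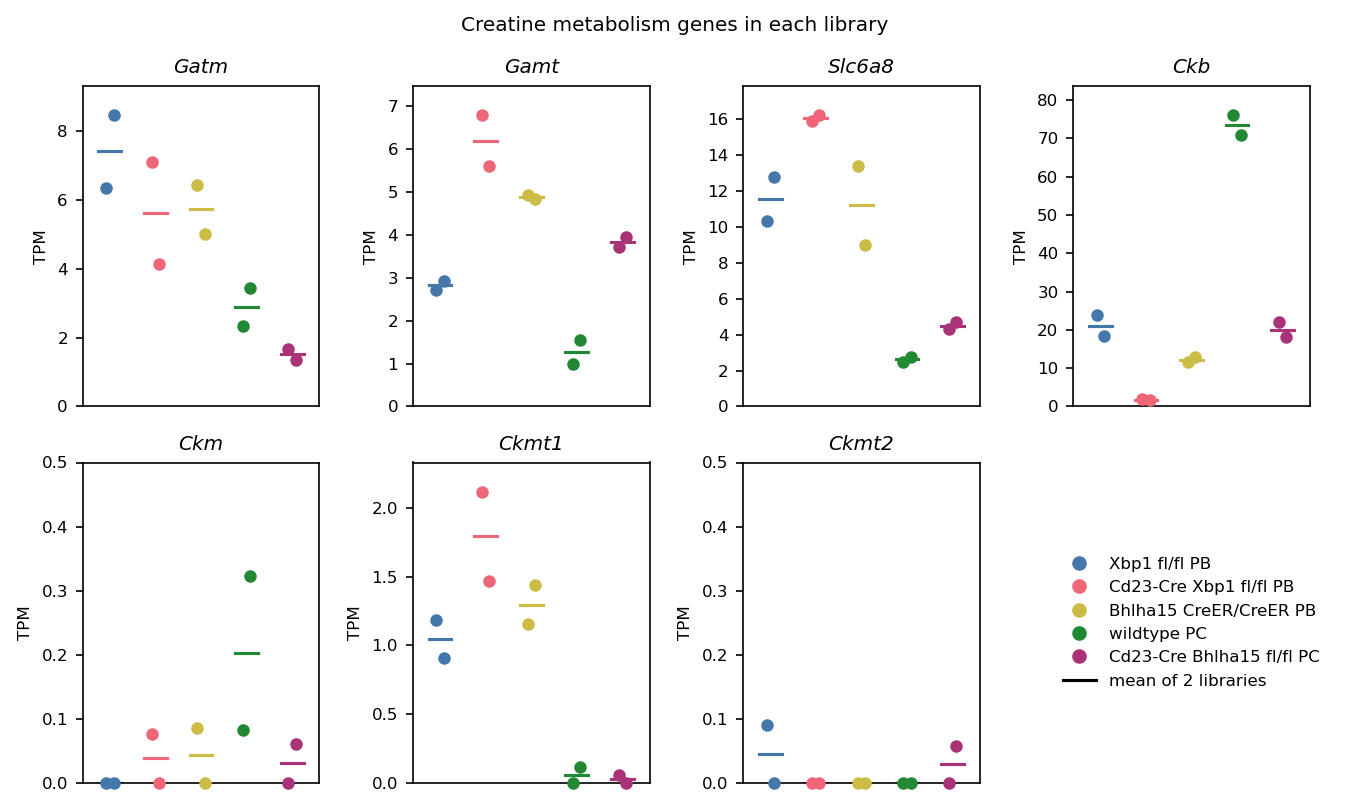
TPM of the 7 genes in each library, with 1 panel per gene, a linear axis that starts at 0 and differs between panels, points for single libraries and lines for the mean of 2 libraries. *Ckb* is highest in wildtype PCs, at 70.7 and 76.0 TPM, and lowest in Xbp1-deficient PBs, whereas *Gamt* is lowest in wildtype PCs.

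To determine how creatine synthesis genes differed upon loss of Xbp1 or Mist1, the first enzyme was examined. *Gatm* stood at 6.34 and 8.45 TPM in control PBs, 7.09 and 4.12 TPM in Xbp1-deficient PBs, and 6.43 and 5.0 TPM in *Bhlha15* CreER/CreER PBs. These 3 groups overlapped in TPM as deposited, but the overlap depended on the scaling. Scaled over all 10 libraries, control PBs stood at 6.65 and 8.6 TPM and *Bhlha15* CreER/CreER PBs lay just below, at 6.57 and 5.5 TPM. Xbp1-deficient PBs, at 6.68 and 3.81 TPM, still overlapped with the controls there. In PCs, *Gatm* stood at 2.35 and 3.45 TPM in wildtype PCs and at 1.68 and 1.36 TPM in Mist1-deficient PCs, which did not overlap. None of these differences passed the test with limma. The log2 difference was −0.63 ± 0.25 (SE, adjusted p = 0.0978) in Xbp1-deficient PBs, with an unadjusted 95% interval of −1.21 to −0.06. It was −0.32 ± 0.25 (SE, adjusted p = 0.70) in *Bhlha15* CreER/CreER PBs and −0.85 ± 0.28 (SE, adjusted p = 0.0662) in Mist1-deficient PCs. The fold changes refer to log2 of scaled TPM plus 0.1, which understates changes of low values. Without the first library of the Xbp1-deficient PBs, *Gatm* passed the test at −1.03 (limma adjusted p = 0.0124), and without the second it stood at −0.25 (adjusted p = 0.486).

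*Gamt*, the second enzyme, was higher in all 3 mutant groups than in their controls. It stood at 2.71 and 2.92 TPM in control PBs, at 6.78 and 5.60 TPM in Xbp1-deficient PBs and at 4.92 and 4.84 TPM in *Bhlha15* CreER/CreER PBs. In PCs, it stood at 0.997 and 1.55 TPM in wildtype PCs and at 3.70 and 3.95 TPM in Mist1-deficient PCs. No mutant library overlapped with the libraries of its control group. Such a separation of 2 against 2 libraries cannot go below p = 0.333 in an exact permutation test, for this gene as for the others. Its share over all genes was not determined. *Gamt* rose by 0.90 ± 0.17 on the log2 scale in Xbp1-deficient PBs (SE, n = 2 per group, limma adjusted p = 0.00546), which is 1.87-fold. It rose by 1.56 ± 0.27 in Mist1-deficient PCs (SE, n = 2 per group, limma adjusted p = 0.0108), which is 2.96-fold. In *Bhlha15* CreER/CreER PBs, the difference of 0.82 ± 0.17 (SE) did not pass the test over all genes (limma adjusted p = 0.143, unadjusted p = 0.00135). The *Bhlha15* CreER/CreER PBs share their control libraries with the Xbp1-deficient PBs.

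These calls rested on few libraries. In a single simulated data set per comparison, the share of false calls lay above the threshold for PCs and slightly above it for Xbp1-deficient PBs. A single set does not give the expected share. Leaving out the first library of the Xbp1-deficient PBs gave an adjusted p of 0.0573 for *Gamt*. Leaving out the first or the second library of the Mist1-deficient PCs gave 0.0588 and 0.0863. The direction stayed the same in all of these fits.

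The ratio of *Gamt* to *Gatm* within a library does not depend on any scaling between libraries. This ratio was chosen after the values were seen and was not tested. It was 0.427 and 0.346 in control PBs, 0.957 and 1.36 in Xbp1-deficient PBs, and 0.765 and 0.968 in *Bhlha15* CreER/CreER PBs. In PCs, it was 0.425 and 0.449 in wildtype and 2.21 and 2.90 in Mist1-deficient PCs. Both control groups therefore lay below 0.45, and all mutant libraries lay above 0.76.

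**Figure D3:**
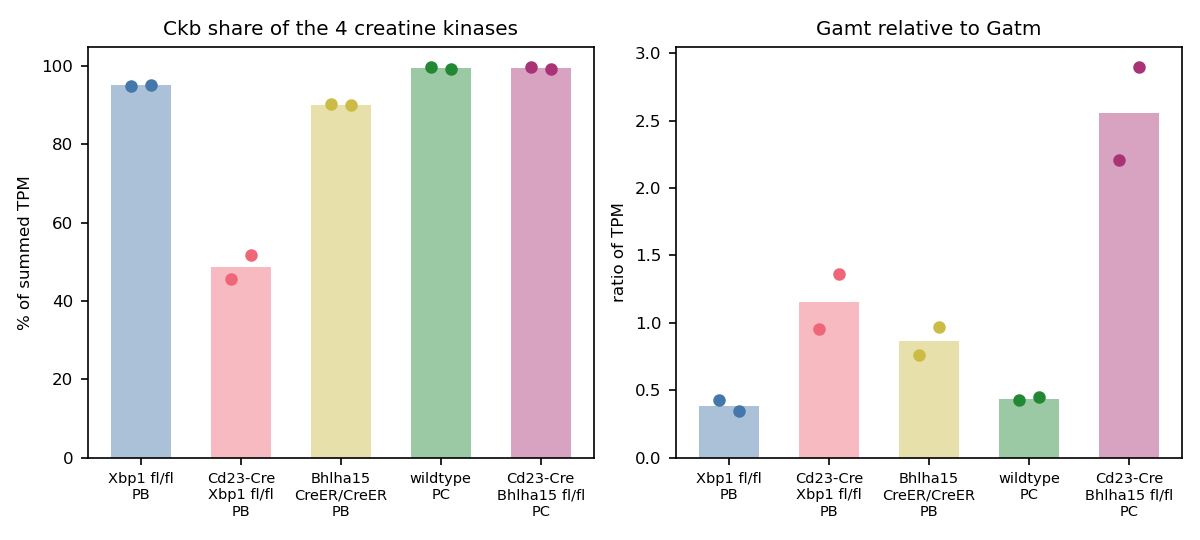
*Ckb* as a percentage of the summed TPM of *Ckb*, *Ckm*, *Ckmt1* and *Ckmt2* on the left, and the ratio of *Gamt* to *Gatm* TPM on the right, with bars for the mean of 2 libraries and points for single libraries. The *Ckb* share is 45.6% and 51.8% in Xbp1-deficient PBs and 90.0% or more in the other libraries, and the *Gamt* to *Gatm* ratio is lowest in the control PBs and wildtype PCs.

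The creatine transporter gene *Slc6a8* was measured at 10.3 and 12.8 TPM in control PBs, at 15.9 and 16.2 TPM in Xbp1-deficient PBs, and at 13.4 and 9.01 TPM in *Bhlha15* CreER/CreER PBs. The Xbp1-deficient libraries lay above the controls without overlap, and the *Bhlha15* CreER/CreER libraries overlapped with them. The log2 difference was 0.27 ± 0.15 in Xbp1-deficient PBs (SE, limma adjusted p = 0.222, unadjusted 95% interval −0.08 to 0.63) and −0.02 ± 0.15 in *Bhlha15* CreER/CreER PBs (SE, limma adjusted p = 0.979). In PCs, *Slc6a8* stood at 2.45 and 2.78 TPM in wildtype PCs and at 4.33 and 4.68 TPM in Mist1-deficient PCs. It rose by 0.78 ± 0.17 on the log2 scale (SE, n = 2 per group, limma adjusted p = 0.0230), which is 1.72-fold. Without the first wildtype library the adjusted p was 0.0510, and without the first or second Mist1-deficient library it was 0.104 and 0.164.

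In the PB libraries, the level of *Slc6a8* moved with the summed level of the fibroblast markers, most of which came from *Col1a1*, *Col1a2* and *Sparc*. Per 1000 TPM of the 8 markers, *Slc6a8* stood at 9.52 and 9.85 TPM in control PBs, 9.50 and 10.6 TPM in Xbp1-deficient PBs, and 9.26 and 10.4 TPM in *Bhlha15* CreER/CreER PBs. The highest of these values exceeded the lowest by 1.14 times, compared with 2.41 times for *Gatm*, 2.47 times for *Gamt*, 2.37 times for *Ckmt1* and 21.3 times for *Ckb*. The PCs contained 2.45 to 4.68 TPM of *Slc6a8* with almost no fibroblast marker mRNA. This comparison was added after the values were seen, and the part of feeder cell RNA in the PB values was not tested. Fewer cells of a type and less RNA per cell cannot be told apart in such bulk libraries.

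*Ckb*, the cytosolic creatine kinase, had the widest range of the 7 genes. It stood at 23.8 and 18.3 TPM in control PBs and at 1.84 and 1.58 TPM in Xbp1-deficient PBs. It stood at 76.0 and 70.7 TPM in wildtype PCs and at 22 and 18.1 TPM in Mist1-deficient PCs. These differences chose the gene. The log2 difference was −3.74 ± 0.19 (SE) in Xbp1-deficient PBs, or 13.4-fold, and −1.86 ± 0.11 (SE) in Mist1-deficient PCs, or 3.62-fold. *Ckb* was the 17th lowest by log2 difference among 12125 genes in the former comparison and the 148th lowest among 12028 in the latter. A difference above 3-fold with an adjusted p under 0.05 and more than 5 TPM in the higher group was met downward by 1.63% and 0.723% of the genes, which is the background against which *Ckb* was picked.

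*Bhlha15* CreER/CreER PBs, which the selection of *Ckb* did not use, contained 11.5 and 12.9 TPM. Both libraries lay below the control PBs and above the Xbp1-deficient PBs. The difference from control PBs was −0.73 ± 0.19 on the log2 scale (SE, n = 2 per group), or 1.66-fold, and did not pass the test (limma adjusted p = 0.22, unadjusted p = 0.00438, unadjusted 95% interval −1.16 to −0.30). The control libraries of this comparison are those on which *Ckb* was selected. *Bhlha15* mRNA was low in both mutant PB groups, at 0.21 and 0.551 TPM in these PBs and at 3.57 and 2.6 TPM in Xbp1-deficient PBs. How *Ckb* relates to this level was not tested. Set directly against the *Bhlha15* CreER/CreER PBs, the Xbp1-deficient PBs had 8.05-fold less *Ckb*, at −3.01 ± 0.19 on the log2 scale (SE), in a comparison that was added after the data were seen and is given without a test.

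The groups were ordered by mean *Ckb* as wildtype PCs at 73.4 ± 3.76 TPM (SD, n = 2), control PBs at 21.1 ± 3.85 TPM, Mist1-deficient PCs at 20.02 ± 2.77 TPM, *Bhlha15* CreER/CreER PBs at 12.2 ± 1.02 TPM and Xbp1-deficient PBs at 1.71 ± 0.18 TPM. The libraries of control PBs and Mist1-deficient PCs overlapped and did not differ beyond their spread, while the other neighbours were separated.

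For the mitochondrial creatine kinases, *Ckmt1* was measured at 1.19 and 0.906 TPM in control PBs, 2.12 and 1.47 TPM in Xbp1-deficient PBs and 1.15 and 1.44 TPM in *Bhlha15* CreER/CreER PBs. The Xbp1-deficient libraries lay above the control libraries, but their lower value was close to the higher one in *Bhlha15* CreER/CreER PBs, and these groups overlapped once TPM were scaled over all 10 libraries. The log2 difference was 0.52 ± 0.36 in Xbp1-deficient PBs (SE, limma adjusted p = 0.334) and 0.33 ± 0.36 in *Bhlha15* CreER/CreER PBs (SE, limma adjusted p = 0.794). In PCs, *Ckmt1* was listed at 0 or at most 0.115 TPM and was not tested. *Ckb* made up 94.9% and 95.3% of the summed creatine kinase TPM in control PBs and 90.3% and 90.0% in *Bhlha15* CreER/CreER PBs. In Xbp1-deficient PBs this share was 45.6% and 51.8%, with *Ckmt1* at 52.5% and 48.2%. In PCs, *Ckb* provided at least 99.3% irrespective of genotype. The total of the 4 kinases was 25.1 and 19.3 TPM in control PBs and 4.03 and 3.05 TPM in Xbp1-deficient PBs.

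Of the 6 genes other than *Ckb*, 4 were tested in PBs and 3 in PCs. In Xbp1-deficient PBs, 1 rose, namely *Gamt*, and none fell, while 10.3% of all genes tested rose and 18.0% fell. In Mist1-deficient PCs, 2 rose, namely *Gamt* and *Slc6a8*, and none fell, while 13.3% of all genes rose and 16.2% fell. In *Bhlha15* CreER/CreER PBs, none of the 5 genes tested, *Ckb* included, passed the test of limma in either direction. At the adjusted threshold, 0.272% of all genes fell and 0.0495% rose. At an unadjusted p below 0.05, 2 of these 5, *Ckb* and *Gamt*, differed from the controls on which *Ckb* was selected, compared with 10.4% of all genes. Between Xbp1-deficient and *Bhlha15* CreER/CreER PBs, none of the 4 tested genes other than *Ckb* passed the test by limma, with no unadjusted p below 0.05, whereas 17.8% of all genes were lower and 9.34% higher in the former. *Gamt* differed there by 0.08 ± 0.17 on the log2 scale (SE, unadjusted 95% interval −0.31 to 0.48).

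**Figure D4:**
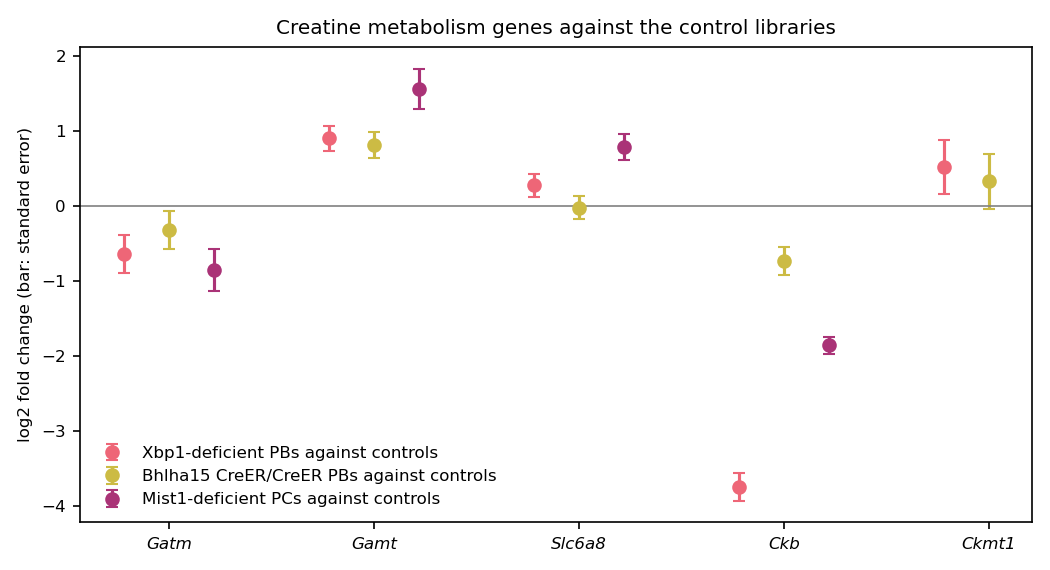
Log2 fold change of the tested genes against the control libraries, with bars for the standard error from limma and colours for the 3 mutant groups; *Ckmt1* was not tested in PCs. *Gamt* lies above 0 in all 3 comparisons, at 0.90, 0.82 and 1.56, *Gatm* lies below 0 in all 3, and *Ckb* is lowest in Xbp1-deficient PBs, at −3.74.

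*Ckb* has copies in the mouse genome that could share its reads. A stretch of 1361 bp on chromosome 4, annotated as *Gm12892*, matched the *Ckb* transcript at 96.8% identity, and a stretch of 1380 bp on chromosome 16 within *Cd80* matched at 93.8%. How reads of 50 bases with several matches were treated is not given in the sources used here, and the *Ckb* values are uncertain to that extent. No other of the 7 transcripts matched elsewhere over 200 bp at 92% identity. Exons of *Ckm* overlap those of *A930016O22Rik* on the opposite strand by 210 bp, and the overlaps of *Ckmt1* with *Strc* and of *Ckmt2* with *1700119I11Rik* are 10 and 15 bp.

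The protein-coding neighbours of *Ckb* within 100 kb that were tested differed from the controls by at most 0.54 on the log2 scale in Xbp1-deficient PBs, *Bhlha15* CreER/CreER PBs and Mist1-deficient PCs. Between Xbp1-deficient and *Bhlha15* CreER/CreER PBs, the largest difference was −0.64 ± 0.11 for *Bag5* (SE, limma adjusted p = 0.00258). *Trmt61a*, a tRNA methyltransferase gene whose start coincides with the upstream Mist1 region, differed by −0.38 ± 0.12 in Xbp1-deficient PBs (SE, limma adjusted p = 0.0427) and by 0.19 ± 0.08 in Mist1-deficient PCs (SE, adjusted p = 0.129). *Bag5*, which encodes a co-chaperone of Hsp70, fell by 0.54 ± 0.11 in the former (SE, limma adjusted p = 0.00588) and rose by 0.35 ± 0.08 in the latter (SE, adjusted p = 0.0239). *Klc1*, a kinesin light chain gene, differed by less than 0.01 in the former and fell by 0.24 ± 0.06 in the latter (SE, limma adjusted p = 0.0257). *Mark3*, a kinase gene, differed by 0.13 and 0.04 and passed the test in neither comparison. A further neighbour, *2810002N01Rik*, was not analysed here.

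The genes with the pattern most like that of *Ckb* were sought by Pearson correlation over the 10 libraries on log2 of scaled TPM among 13229 genes. This is a description, since the libraries form 5 groups that differ in cell origin. The highest values were found for *Mbnl2*, a splicing regulator gene (r = 0.99), *Ubxn4*, which functions in ER-associated degradation (r = 0.99), *Sidt2*, which encodes a lysosomal membrane protein (r = 0.99), *Hvcn1*, which encodes a proton channel (r = 0.99), and *Arfgap3*, which acts in transport from the Golgi (r = 0.99). Such a correlation does not measure the size of a change. In Xbp1-deficient PBs, these genes were lower by 1.91-fold (*Hvcn1*) to 4.28-fold (*Sidt2*), compared with 13.4-fold for *Ckb*. *Sidt2* stood at 167 and 159 TPM in control PBs, at 43.2 and 44.8 TPM in Xbp1-deficient PBs and at 125 and 124 TPM in *Bhlha15* CreER/CreER PBs. In PCs, it stood at 291 and 265 TPM in wildtype PCs and at 148.8 and 155 TPM in Mist1-deficient PCs. Of the creatine genes, *Gamt* and *Slc6a8* ran opposite to *Ckb*, with r of −0.83 and −0.77, while *Ckmt1* and *Gatm* had r of −0.66 and −0.32.

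The substrates of creatine synthesis are arginine, glycine and a methyl donor, and genes of their supply and use were compared by lists. Each list mixes both, so that its counts and median do not measure supply. Of 14 genes for arginine and ornithine, 11 were tested in PBs. Of these, 3 rose and 3 fell in Xbp1-deficient PBs, with a median log2 difference of 0.01 against 0.00 over all genes. Among all genes tested, 10.3% rose and 18.0% fell in this comparison, which is the background for each list below. The arginine transporter gene *Slc7a3* rose from 14.8 and 13.4 TPM to 109 and 122 TPM, by 2.82 ± 0.18 on the log2 scale (SE, limma adjusted p = 1.29e-05). *Oat*, which degrades ornithine, fell by 1.59 ± 0.09 (SE, adjusted p = 7.50e-06), and *Odc1*, which converts ornithine to putrescine, fell by 1.40 ± 0.12 (SE, adjusted p = 7.62e-05). *Slc3a2*, the shared heavy chain of several amino acid transporters, rose by 0.83 ± 0.11 (SE, adjusted p = 0.000946).

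In Mist1-deficient PCs, 6 of the 11 tested genes of this list fell and 2 rose, with a median of −0.37 against 0.01 over all genes. Among all genes tested there, 16.2% fell and 13.3% rose, which is likewise the background for each list below. *Odc1* fell by 0.93 ± 0.09 (SE, limma adjusted p = 0.00261), *Ass1*, an enzyme of arginine synthesis, fell by 0.92 ± 0.14 (SE, adjusted p = 0.0075), and the arginine transporter gene *Slc7a1* fell by 0.81 ± 0.10 (SE, adjusted p = 0.00369). *Oat* rose by 0.71 ± 0.06 (SE, adjusted p = 0.00195). *Oat* was thus lower in Xbp1-deficient PBs and higher in Mist1-deficient PCs than in the respective controls, and *Odc1* was lower in both.

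Of 10 genes for glycine, 9 were tested. In Xbp1-deficient PBs, 6 rose and 1 fell, compared with 10.3% and 18.0% of all genes, with a median of 0.53. The glycine transporter gene *Slc6a9* rose by 1.74 ± 0.12 (SE, limma adjusted p = 2.28e-05), and *Psph* and *Psat1*, which act in serine synthesis, rose by 1.11 ± 0.10 and 0.75 ± 0.10 (SE, adjusted p = 7.76e-05 and 0.000883). *Shmt2*, which makes glycine from serine in mitochondria, rose from 233 and 234 TPM to 423 and 418 TPM, by 0.64 ± 0.09 (SE, adjusted p = 0.00101). In Mist1-deficient PCs, 5 of the 9 fell and 1 rose, compared with 16.2% and 13.3% of all genes, with a median of −0.45. *Shmt2* fell there from 299 and 279 TPM to 176 and 209 TPM, by 0.57 ± 0.10 (SE, limma adjusted p = 0.0125), *Phgdh*, the first enzyme of serine synthesis, fell by 0.46 ± 0.11 (SE, adjusted p = 0.0327), and *Amt* of the glycine cleavage system fell by 0.48 ± 0.12 (SE, adjusted p = 0.0343). *Gcsh*, another gene of that system, rose by 0.50 ± 0.10 (SE, adjusted p = 0.0177).

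Of 15 genes of the methyl donor cycle, 10 were tested. In Xbp1-deficient PBs, *Ahcyl2*, which encodes a protein related to S-adenosylhomocysteine hydrolase, rose by 0.66 ± 0.08 (SE, limma adjusted p = 0.00041) and no other gene passed the test. In Mist1-deficient PCs, *Ahcyl2* and the related *Ahcyl1* rose by 0.38 ± 0.08 and 0.23 ± 0.06 (SE, adjusted p = 0.0169 and 0.0313).

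Genes that use or exchange ATP were compared next. Of 18 other phosphotransfer kinase genes, 13 were tested in PBs, and 5 fell and 3 rose in Xbp1-deficient PBs, with a median of −0.14. This balance turned to 4 that fell and 6 that rose both without scaling and with quantile normalization, with medians of 0.07 and −0.02. The adenylate kinase gene *Ak7* fell from 4.66 and 5.47 TPM to 0.702 and 0.278 TPM, by 3.40 ± 0.34 (SE, limma adjusted p = 0.000163). The nucleoside diphosphate kinase family genes *Nme6* and *Nme7* fell by 1.52 ± 0.14 and 0.79 ± 0.13 (SE, adjusted p = 8.99e-05 and 0.00278), and *Nme4* rose by 0.96 ± 0.16 (SE, adjusted p = 0.0023). In Mist1-deficient PCs, 14 were tested, of which 1 fell and 3 rose, with a median of 0.14. *Ak3*, the mitochondrial matrix adenylate kinase, fell from 192 and 160 TPM to 77.8 and 80.8 TPM, by 1.13 ± 0.11 (SE, limma adjusted p = 0.00252). *Nme7*, *Cmpk1* and *Nme1* rose by 0.49 ± 0.13, 0.47 ± 0.05 and 0.21 ± 0.06 (SE, adjusted p = 0.0402, 0.00322 and 0.0479). *Ak7* stood at 3.50 and 3.31 TPM in wildtype PCs and at 4.4 and 4.71 TPM in Mist1-deficient PCs.

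Of 9 genes for the exchange of ATP and ADP across mitochondrial membranes or for hexokinases, 7 were tested in PBs and 8 in PCs. In Xbp1-deficient PBs, 3 rose and none fell, with a median of 0.28. These were *Vdac3*, a channel of the outer membrane, at 0.79 ± 0.09, the adenine nucleotide carrier gene *Slc25a4* at 0.29 ± 0.08 and *Vdac1* at 0.29 ± 0.08 (SE, limma adjusted p = 0.000271, 0.023 and 0.0248). In Mist1-deficient PCs, *Slc25a4* and *Vdac2* rose by 0.36 ± 0.05 and 0.27 ± 0.06 (SE, adjusted p = 0.00729 and 0.0216), and *Hk1*, a hexokinase gene, fell by 0.63 ± 0.09 (SE, adjusted p = 0.0067).

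Among 11 genes for ATP-using ion pumps, 7 were tested in PBs and 10 in PCs. In Xbp1-deficient PBs, 3 fell and 1 rose, with a median of −0.30. *Atp2a2*, the calcium pump of the ER, fell by 1.02 ± 0.08, and *Atp2b1*, a calcium pump of the plasma membrane, fell by 0.67 ± 0.12 (SE, limma adjusted p = 5.03e-05 and 0.00478). *Atp1b1*, the beta subunit of the sodium pump, was the exception. It stood at 1.09 and 1.48 TPM in control PBs, at 11.1 and 11.4 TPM in Xbp1-deficient PBs and at 4.96 and 4.09 TPM in *Bhlha15* CreER/CreER PBs. In PCs, it stood at 91.5 and 104 TPM in wildtype PCs and at 179 and 210 TPM in Mist1-deficient PCs. The mutant libraries lay above their controls throughout, and *Atp1b1* rose by 2.84 ± 0.18, 1.79 ± 0.18 and 1.01 ± 0.09, respectively (SE, limma adjusted p = 1.32e-05, 0.00715 and 0.00221). *Atp2a2* fell by 0.32 ± 0.07 in Mist1-deficient PCs (SE, adjusted p = 0.0216) and was the only other pump gene to pass the test there.

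Of 8 genes for AMP-activated protein kinase, a sensor of the energy state, and its activating kinase, 6 were tested. None passed the test of limma in Xbp1-deficient PBs, where 0 had an unadjusted p below 0.05 and the median was −0.03. In Mist1-deficient PCs, *Stk11* and *Prkag1* rose by 0.32 ± 0.05 and 0.23 ± 0.06 and *Prkaa1* fell by 0.35 ± 0.07 (SE, adjusted p = 0.00912, 0.0304 and 0.0209). In *Bhlha15* CreER/CreER PBs, *Atp1b1* was the only gene of these 7 lists that passed the test.

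**Figure D5:**
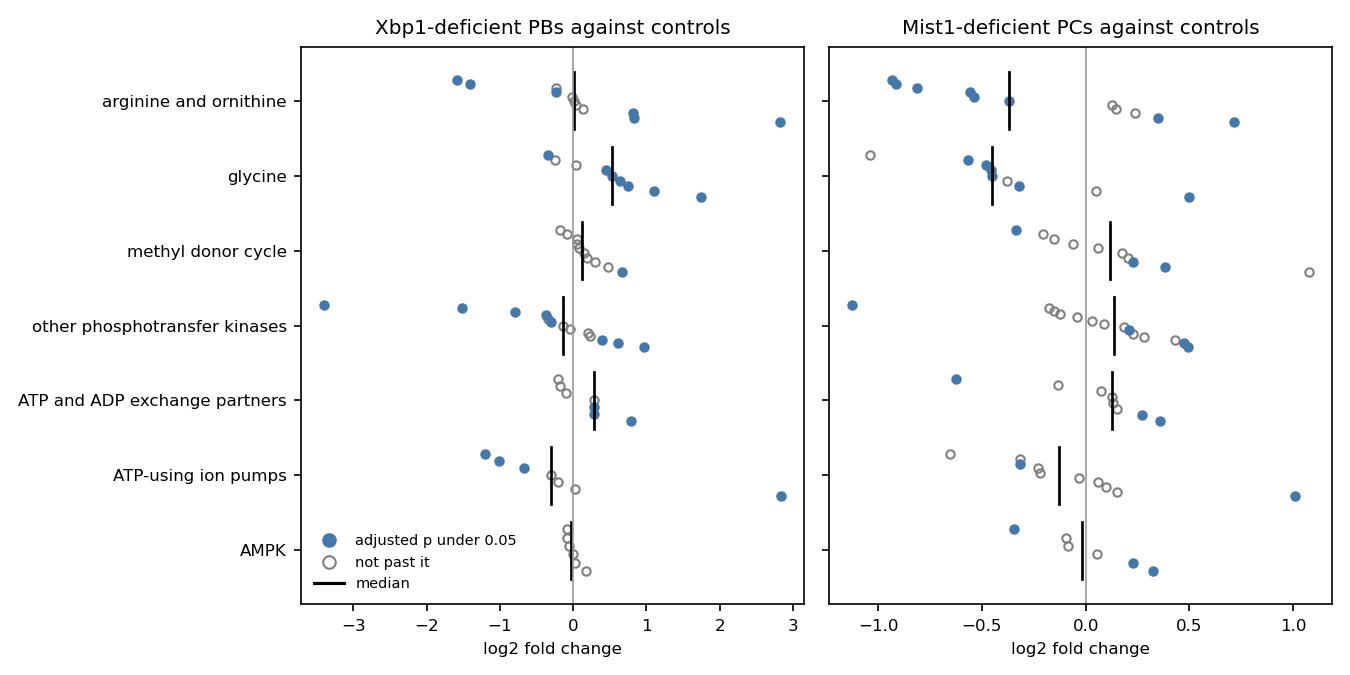
Log2 fold changes of the tested genes of 7 lists in Xbp1-deficient PBs on the left and Mist1-deficient PCs on the right, with filled points past an adjusted p of 0.05, open points not past it, and vertical lines for the median of a list; the horizontal axes differ. Glycine genes have a median of 0.53 on the left and −0.45 on the right, and *Atp1b1* is the rightmost pump gene in both.

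Across the 7 lists, 12 of 63 tested genes fell and 17 rose in Xbp1-deficient PBs, compared with 18.0% and 10.3% of all genes. The scaling of the libraries mattered here. Without scaling, the median of all genes shifted to 0.21 on the log2 scale, and 8 list genes fell and 29 rose, while over all genes 1357 fell and 3423 rose instead of 2186 and 1250. Among the single lists, without scaling 2 arginine and ornithine genes fell and 5 rose, no glycine gene fell and 7 rose, and 2 pump genes fell and 2 rose. All changes above are relative to the scaled libraries. In Mist1-deficient PCs, 16 of 68 tested list genes fell and 13 rose, compared with 16.2% and 13.3% of all genes, and without scaling 19 fell and 10 rose. Of the genes of the methyl donor cycle, 1 fell and 2 rose there, whereas 2 fell and 1 rose without scaling.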

How the data were processed

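RNA-seq of sorted PBs and PCs (2 libraries in each of 5 groups, taken from the labels) and Mist1 Bio-ChIP-seq of PBs were analysed. The authors made the deposited TPM with cutadapt, STAR 2.4.2 (mm9) and featureCounts 1.5, without immunoglobulin and T cell receptor genes. The deposited peaks, which are positions alone, were called by the authors for each experiment with Bowtie 1.0.0 and MACS. TPM keep no depth, so that no counting error is given, and read counts, which the authors tested with DESeq2, were not used here.

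TPM were scaled by the median of ratios, and genes that reached 1 TPM in 2 or more libraries of a model were fitted on log2(TPM + 0.1) with limma 3.58.1 (R 4.3.3; lmFit, eBayes with trend), in a model of 6 PB and another of 4 PC libraries, with Benjamini-Hochberg adjustment over all genes and a threshold of 0.05. The fit was tested on a single simulated data set per comparison, where smaller changes were recovered less often. The share of false calls lay above the threshold for PCs and slightly above it for Xbp1-deficient PBs. An exact permutation test of 2 against 2 libraries cannot go below p = 0.333. Regions found in both experiments are the parts shared by peaks that overlap by at least 1 bp. They were compared with GENCODE M1 on mm9, from which sequences were read. Copies were sought with blastn 2.17.0. Figures and windows were made with Python 3.11.15.

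The genes named are the 7 creatine genes, *Xbp1*, *Bhlha15*, up to 4 genes per list and contrast with the largest differences past the threshold, genes within 100 kb of *Ckb*, and the 5 most like it. Of the list genes so chosen, 2 are counted but not reported here by name. Members and lists were chosen with earlier results of these data known. Alternatives were other scalings, pseudocounts of 1 and 0.01, other filters, eBayes without trend or robust, only the 4 libraries compared, each library left out, other peak overlaps and windows. Xbp1-deficient against *Bhlha15* CreER/CreER PBs, the ratios and the scalings of lists were added after the data were seen.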

Additional observations from a re-analysis of the deposited data

How the results depend on the processing

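The log2 difference of *Ckb* kept its direction under all 15 alternatives in Xbp1-deficient PBs and all 12 in Mist1-deficient PCs. In Xbp1-deficient PBs it was −3.16 with a pseudocount of 1, which compresses low values by construction, and ranged from −3.97 to −3.51 with a library left out. In *Bhlha15* CreER/CreER PBs, *Ckb* stayed below its control and short of the threshold throughout, at adjusted p from 0.137 to 0.751. In Mist1-deficient PCs, 2 of the 6 other creatine genes passed the threshold. This count was 0 under a filter of 5 TPM, because none of them was then tested, and 0 to 2 with a library left out, in fits that assume the lone library to vary like the other group. In Xbp1-deficient PBs it was 1 under every alternative run, but without the first Xbp1-deficient library the gene was *Gatm* (limma adjusted p = 0.0124) in place of *Gamt* (0.0573). For lists in *Bhlha15* CreER/CreER PBs, 1 gene fell without scaling and with quantile normalization, compared with 0, and in Xbp1-deficient PBs 29 genes rose without scaling, compared with 17. The cause was not tested. No paired analysis was possible because no replicate number in the labels links libraries of different groups. Levels under 1 TPM could not be resolved, since the depth is unknown.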
